A study of Mus musculus with 9 samples.

Results

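The 44 genes described here encode the machinery that assembles the mitotic spindle, attaches chromosomes to it, separates sister chromatids and divides the cell. They were picked by gene symbol, and all 44 were found among the 19769 genes of the deposited RNA-seq table. They fall into 8 role groups: mitotic entry kinases and cyclins, the spindle assembly checkpoint, the anaphase-promoting complex with sister separation, the chromosomal passenger complex, the centromere and kinetochore, spindle motors and microtubule organisers, the central spindle with cytokinesis, and chromosome structure.

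The study asked how FUBP1 and FUBP2 set the level of MYC in single cells, and 4 of its 9 samples were RNA-seq libraries. Primary MEFs, mouse embryonic fibroblasts kept for at most 3 passages, came from Myc-Egfp+/+ mice, in which MYC is fused to a green fluorescent protein. To raise the fluorescence, all cells were held for 6 h in 20 µM of the proteasome inhibitor MG-132. They were then sorted into low- and high-GFP cells with comparable mean forward scatter, and were seeded overnight. The 2 groups are called low-MYC and high-MYC cells, and each was sequenced as 2 technical replicates. Both sorted groups therefore carried the fusion and had met the inhibitor, and the p-values below compare these 4 libraries and not separate cultures or animals. Synthetic ERCC transcripts were added in proportion to cell count before RNA extraction. Levels are given as spike-in-normalized FPK, fragments per kilobase of transcript divided by the spike-in score of the library, so a level stands for mRNA per cell. A share is the value of a gene in ppm, parts per 1000000 of the sum over all genes of the same library, so it does not move when every mRNA of a library rises by the same factor. The other samples were TACh-seq of WT and KOKD MEFs, 2 replicates each, and 1 FUBP1 ChIP-seq sample. KOKD cells are Fubp1 knockout MEFs in which Fubp2 was knocked down by siRNA.

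In a dividing cell the proteins of this set act in a fixed order. Cyclin B with CDK1 starts mitosis, kinetochores bind spindle microtubules, and the checkpoint holds the anaphase-promoting complex in check until every chromosome is attached. CDC20 then directs that complex to securin and cyclin B, separase cuts the cohesin between sister chromatids, and the central spindle guides the cleavage furrow. Transcription of most of these genes is low in resting cells and climbs towards G2 and M phase, so the set is widely read as a sign of proliferation. Many of the genes are known to carry a pair of promoter elements, a CCAAT box and, close to the start site, a cell cycle genes homology region with the core TTTGAA.

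RefSeq promoter sequences (GRCm38.p6, the patch release of mm10), each covering 250 bases before and 50 after a start site, were available for 36 of the 44 genes. TTTGAA, read on both strands, was present in 27 of the 36 (75%) and in 13.8% of the 8390 tested genes that have a promoter there. Within 50 bases of the start it was present in 24 of 36 genes, against 3.75% of tested genes. In the 250 bases before the start alone it was present in 14 of 36, against 12.3%. CCAAT was present in 27 of 36 promoters, against 43.5%, and 23 of 36 held both elements, against 6.84%. The variant TTCGAA was present in 3 of 36, against 2.50%, and the E-box CACGTG, the sequence that MYC and MAX are known to prefer, in 3 of 36, against 12.1%. The variant differs from the core at 1 base and was counted apart, and overlapping matches of different motifs were all counted. A match is a description of the letters and not a bound site. The start site that RefSeq gives lay 3867 bases downstream of the start in the RNA-seq table for Kif2c, 2394 for Cdca8, 328 for Kif4 and 270 for Pttg1. For these genes the window does not cover the promoter of the other start. For Mad2l1 the RefSeq start lay upstream of the start in the RNA-seq table, and the window ends before the latter.

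The last 130 bases before the RefSeq start are shown for 4 genes whose values recur below. Cdc20 had the highest share change of the set, Top2a holds the most CCAAT boxes shown here, Kif11 has the simplest arrangement, and Espl1 is the gene of the set that lies on the chromosome of Myc. They lie at chr4:118437344-118437473 (minus strand), chr11:99024190-99024319 (minus strand), chr19:37376252-37376381 (plus strand) and chr15:102296163-102296292 (plus strand), in that order. Capitals mark the motifs named above on either strand, and the sequences run 5′ to 3′ on the strand of the gene.
Cdc20: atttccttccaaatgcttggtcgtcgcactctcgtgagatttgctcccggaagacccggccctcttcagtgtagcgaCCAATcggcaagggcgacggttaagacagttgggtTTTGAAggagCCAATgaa
Top2a: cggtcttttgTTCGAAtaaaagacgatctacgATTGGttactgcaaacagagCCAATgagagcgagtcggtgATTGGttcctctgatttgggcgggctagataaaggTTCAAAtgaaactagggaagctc
Kif11: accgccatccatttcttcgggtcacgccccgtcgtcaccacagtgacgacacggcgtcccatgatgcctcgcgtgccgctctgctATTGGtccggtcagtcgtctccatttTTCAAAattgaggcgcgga
Espl1: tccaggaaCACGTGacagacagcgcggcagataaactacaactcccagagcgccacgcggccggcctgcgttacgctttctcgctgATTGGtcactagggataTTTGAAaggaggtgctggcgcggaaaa
In Cdc20 the TTTGAA begins 18 bases before the start with CCAAT boxes at 53 and 8 bases before it. Kif11 carries the pair on the opposite strand, at 19 and 45 bases before the start. Espl1 has TTTGAA at 27 and CCAAT at 44 bases before the start, and in addition an E-box 122 bases before it. The genes with neither TTTGAA nor CCAAT in their window were Mad2l1, Pttg1, Birc5, Nuf2 and Ncaph, 5 of 36 against 49.6% of tested genes. For Mad2l1 and Pttg1 the window does not cover the start in the RNA-seq table.

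All 44 mitotic genes rose in high-MYC cells when counted per cell. Each was called higher by limma at a Benjamini-Hochberg adjusted p under 0.01, as were 97.1% of the 11870 genes tested, those with a mean of at least 0.1 normalized FPK. All 44 also passed this threshold together with a fold change of at least 2, which 55.1% of the tested genes did; with a pseudocount of 1 in place of 0.1, 12 of the 44 did, against 12.2% of the tested genes. The fitted log2 fold change, on the log2(normalized FPK + 0.1) scale whose pseudocount shrinks the change of weakly expressed genes, had a median of 1.28 over the set against 1.03 over all tested genes. It ran from 1.01 in Pttg1 to 1.48 in Cdc20. As a plain ratio of group means the set rose 2.60-fold in the median, between 2.16-fold and 2.82-fold, against 2.26-fold for the median tested gene and 2.24-fold for the library totals. Myc itself, at 9.81 and 9.86 in low-MYC and 20.3 and 20.5 in high-MYC replicates, rose 2.07-fold. In each of the 44 genes the lower high-MYC replicate lay above the higher low-MYC replicate, which held for 99.0% of the tested genes.

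**Figure D1:**
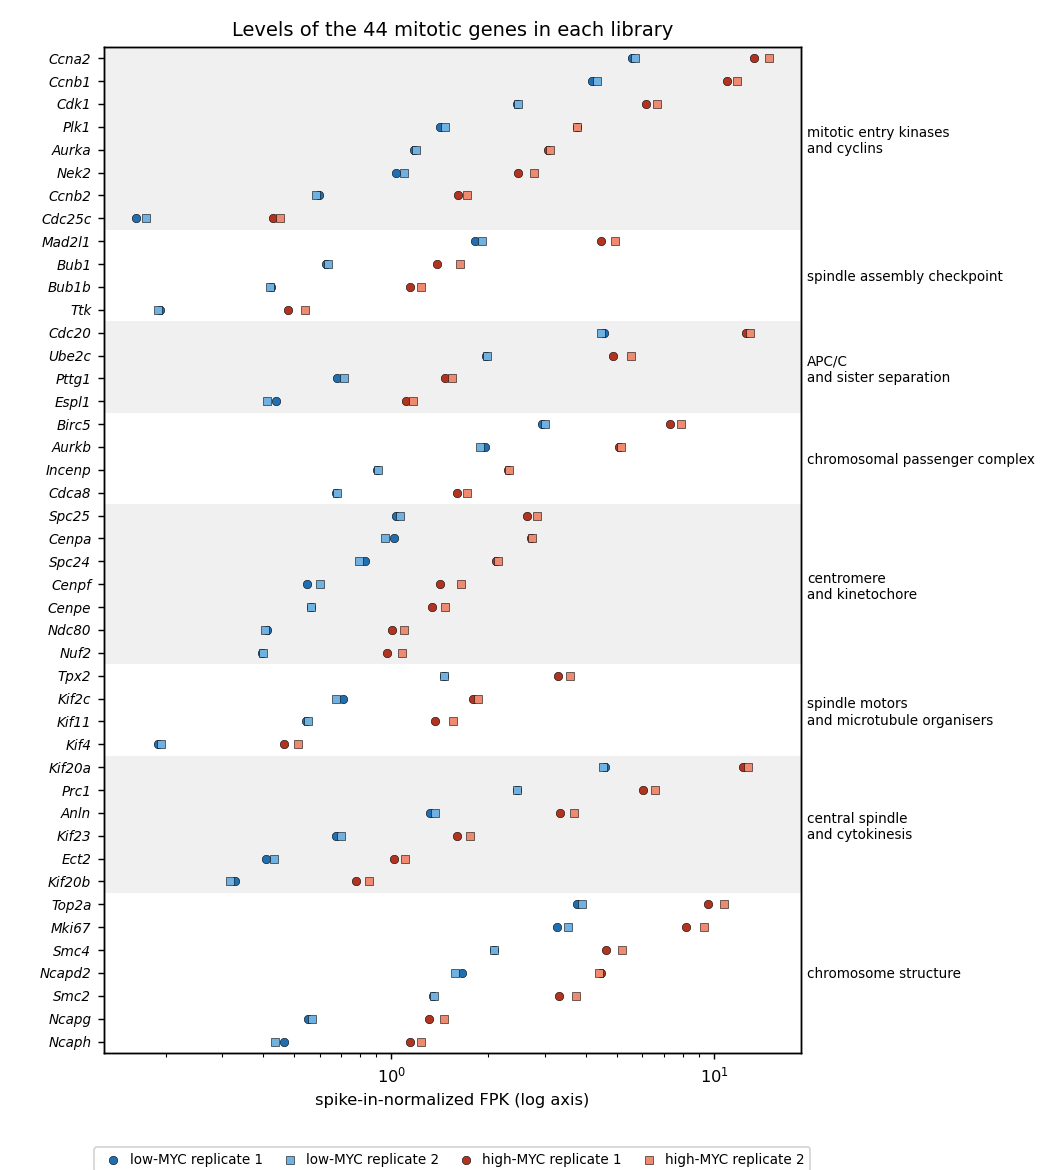
Each row is 1 of the 44 mitotic genes, grouped by role, and the points are its spike-in-normalized FPK in the 4 libraries on a log axis (circles replicate 1, squares replicate 2). The blue low-MYC points and the red high-MYC points do not overlap in any row, as in 99.0% of the tested genes, and the distance between them is similar from Cdc25c, the lowest gene, to Ccna2, the highest.

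As a share of the library the differences were far smaller. Summed over the set, the share was 1390 and 1349 ppm in low-MYC replicates and 1578 and 1603 ppm in high-MYC replicates, on average 0.137% and 0.159% of all signal. The ratio of the group means was 1.16, and both high-MYC libraries lay above both low-MYC libraries. The exact permutation test gave p = 0.333, the smallest a comparison of 2 against 2 libraries allows. The log2 change of share was above 0 in 43 of the 44 genes and in 53.0% of tested genes, with a median of 0.21 over the set and 0.01 over all tested genes. At an adjusted p under 0.01 limma called 0 of the 44 higher, where it called 1.78% of tested genes. At an adjusted p under 0.05 it called 12 higher (7.77% of tested genes), and 40 had an unadjusted p under 0.05 with a higher share in high-MYC cells (18.7% of tested genes). In 41 genes both high-MYC shares exceeded both low-MYC shares, which held for 33.9% of tested genes. The exceptions were Bub1, Smc4 and Pttg1. In these bulk libraries, more cells in G2 or M phase and more of these mRNAs in each such cell cannot be told apart. The paper compared genes of defined cell cycle phases between these groups on spike-in-normalized values. It reported no enrichment of either group for a phase. That comparison was not repeated here.

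**Figure D2:**
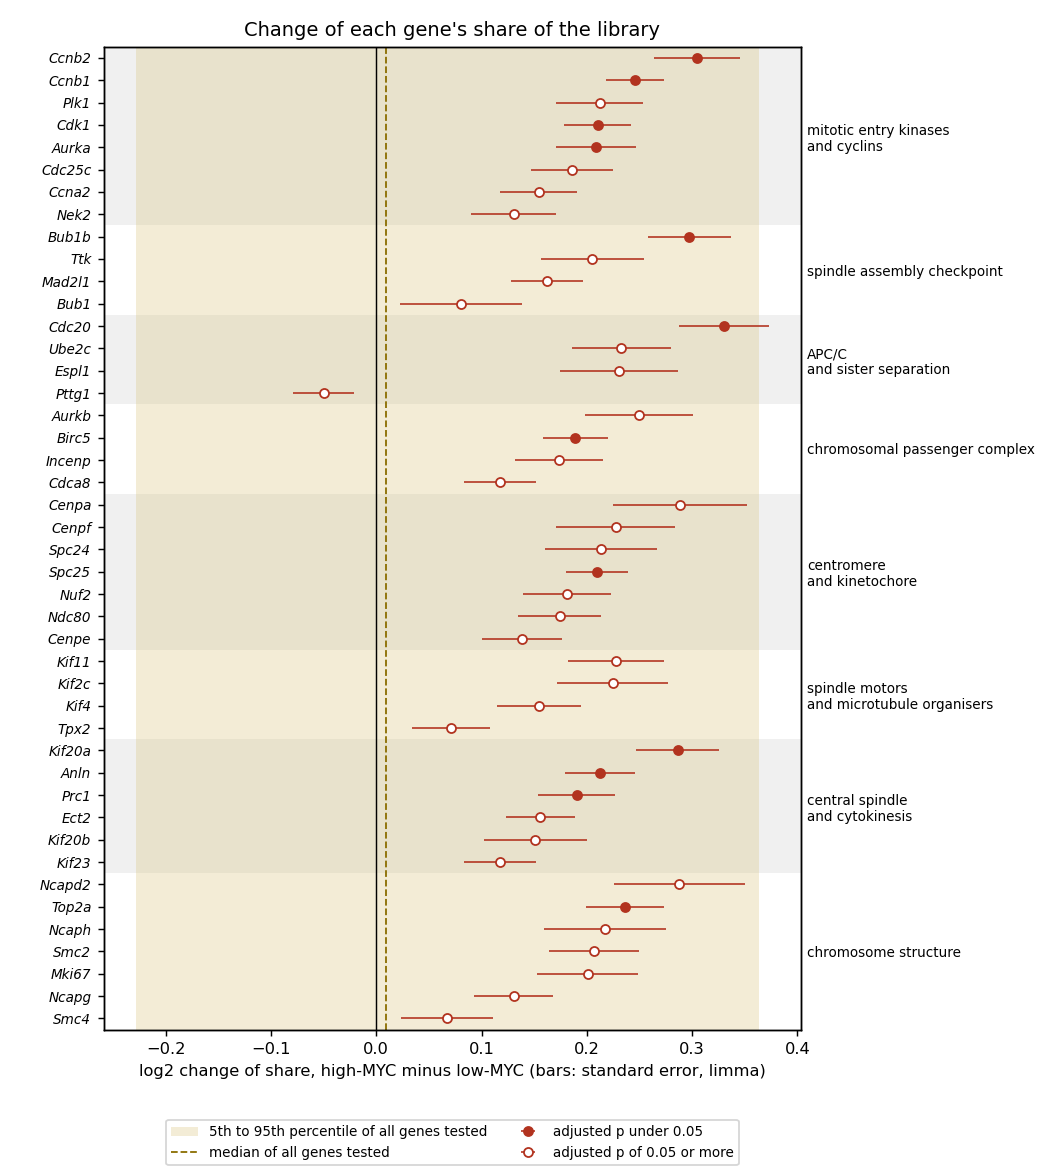
Each point is the log2 change of share (high-MYC minus low-MYC, ppm plus 1) of 1 mitotic gene with its standard error from limma, filled where the Benjamini-Hochberg adjusted p was under 0.05. The band spans the 5th to 95th percentile of all tested genes and the dashed line their median; 43 points lie to the right of 0 and Pttg1 lies to the left.

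Among the mitotic entry kinases and cyclins, limma called 8 of 8 genes higher per cell, as it did 97.1% of tested genes. As a share, 4 of 8 were higher at an adjusted p under 0.05, against 7.77% of tested genes. Ccna2, the cyclin of S and G2 phase, had the highest level of the set, at 5.57 and 5.70 normalized FPK in low-MYC and 13.3 and 14.8 in high-MYC replicates. Ccnb1, the cyclin that starts mitosis, stood at 4.18 and 4.35 against 10.9 and 11.8. Its share of 90.3 and 90.1 ppm in low-MYC and 106 and 108 in high-MYC replicates gave a log2 change of 0.25 (SE 0.03, limma with Benjamini-Hochberg adjusted p = 0.0176), the lowest adjusted p of the set. The replicates of Ccnb1 differed by little in both groups, while Ccna2 had the same direction with a log2 change of share of 0.15 (limma with Benjamini-Hochberg adjusted p = 0.0727). Ccnb2, a second B-type cyclin with a level of 0.598 and 0.586 against 1.61 and 1.71, had a log2 change of share of 0.30 (SE 0.04, limma with Benjamini-Hochberg adjusted p = 0.0250). Cdk1, the kinase that these cyclins activate, was at 2.45 and 2.48 in low-MYC and 6.18 and 6.63 in high-MYC replicates. The share changes of Cdk1 and of Aurka, the kinase of the spindle poles, were 0.21 each, with limma Benjamini-Hochberg adjusted p of 0.0323 and 0.0459. Plk1, the kinase that acts in centrosome maturation, also had a log2 change of share of 0.21, with limma Benjamini-Hochberg adjusted p = 0.0504. Cdc25c, the phosphatase that activates CDK1, was the lowest gene of the set at 0.162 and 0.174 against 0.431 and 0.454. Nek2, a centrosomal kinase, had the lowest share change of the group at 0.13.

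In the spindle assembly checkpoint all 4 genes were called higher per cell, as were 97.1% of tested genes. Their log2 changes of share ran from 0.08 in Bub1 to 0.30 in Bub1b. Bub1b, which encodes the checkpoint protein BUBR1, was at 0.425 and 0.420 normalized FPK in low-MYC and at 1.14 and 1.23 in high-MYC replicates. With shares of 9.18 and 8.70 against 11.1 and 11.3 ppm, its log2 change of share was 0.30 (SE 0.04, limma with Benjamini-Hochberg adjusted p = 0.0240). The kinase gene Bub1 was at 0.628 and 0.637 against 1.39 and 1.63. Its shares were 13.6 and 13.2 ppm in low-MYC and 13.5 and 14.9 in high-MYC replicates, so the lower high-MYC value lay between the low-MYC values. Bub1 had the largest gap between high-MYC replicates in the set, 0.15 on the log2 scale of share. Mad2l1, the gene of the MAD2 protein that binds CDC20, had a level of 1.82 and 1.91 against 4.45 and 4.92, and a log2 change of share of 0.16. Ttk, the kinase MPS1, was low at 0.192 and 0.190 against 0.479 and 0.541, with a log2 change of share of 0.20.

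The group around the anaphase-promoting complex held both ends of the set. Cdc20, the activator that brings substrates to the complex, was at 4.57 and 4.48 normalized FPK in low-MYC and at 12.6 and 12.96 in high-MYC replicates. Its share of 98.6 and 92.7 against 122 and 119 ppm gave the largest log2 change of share in the set, 0.33 (SE 0.04, limma with Benjamini-Hochberg adjusted p = 0.0233). Pttg1, which encodes securin, the inhibitor of separase, was at 0.680 and 0.716 against 1.47 and 1.55. Its shares of 14.7 and 14.8 in low-MYC and 14.2 and 14.2 ppm in high-MYC replicates gave a log2 change of -0.05 (SE 0.03, limma with Benjamini-Hochberg adjusted p = 0.323). It was the only gene of the 44 whose fitted share change was negative. Espl1, the separase itself, had a level of 0.440 and 0.413 against 1.11 and 1.17 and a log2 change of share of 0.23 (SE 0.06). Ube2c, the ubiquitin-conjugating enzyme of the complex, was at 1.96 and 1.98 against 4.87 and 5.55, with a log2 change of share of 0.23 (SE 0.05). Neither Espl1 nor Ube2c passed an adjusted p of 0.05. Summed over the 4 genes, the share was 165 and 157 against 195 and 195 ppm, a ratio of 1.21 and the highest among the 8 role groups.

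The chromosomal passenger complex corrects wrong attachments through its kinase, Aurora B. Aurkb, the gene of that kinase, was at 1.95 and 1.88 in low-MYC and 5.07 and 5.16 in high-MYC replicates, and Incenp, the scaffold, at 0.906 and 0.909 against 2.30 and 2.32. Birc5, which encodes survivin, had 2.94 and 3.00 against 7.29 and 7.90, and Cdca8, which encodes borealin, 0.676 and 0.678 against 1.60 and 1.71. Their shares were higher in both high-MYC replicates for all 4 subunits, as for 33.9% of tested genes. The log2 changes of share lay between 0.12 in Cdca8 and 0.25 in Aurkb. Only Birc5, at 0.19 (SE 0.03), had a limma Benjamini-Hochberg adjusted p under 0.05, namely 0.0380. Aurkb had the larger change and the larger spread, with 42.1 and 38.9 ppm in its low-MYC replicates.

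All 7 centromere and kinetochore genes were called higher per cell, as were 97.1% of tested genes. All 7 had both high-MYC shares above both low-MYC shares, which held for 33.9% of tested genes. Cenpa, the histone H3 variant that marks centromeres, went from 1.02 and 0.956 to 2.72 and 2.74 normalized FPK. Its log2 change of share, 0.29 (SE 0.06), was the highest of the group, and its limma Benjamini-Hochberg adjusted p was 0.0653. Ndc80, Nuf2, Spc24 and Spc25 encode the 4 subunits of the NDC80 complex, which holds the microtubule. Spc25 was at 1.03 and 1.06 against 2.63 and 2.83, and Spc24 at 0.829 and 0.797 against 2.12 and 2.14. Ndc80 was at 0.412 and 0.408 against 1.01 and 1.09, and Nuf2 at 0.397 and 0.399 against 0.970 and 1.08. The level of Spc24 and Spc25 was therefore above that of their partners Ndc80 and Nuf2 in every library, with no overlap. Their share changes lay close together, at 0.17 in Ndc80, 0.18 in Nuf2, 0.21 in Spc24 and 0.21 in Spc25. Spc25 was the only member of the group with a limma Benjamini-Hochberg adjusted p under 0.05 (0.0279). Cenpe, a kinetochore motor, and Cenpf, a large kinetochore protein, had share changes of 0.14 and 0.23.

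The spindle motors and microtubule organisers had the lowest ratio of summed share among the role groups, 1.11. Kif11, the motor that pushes spindle poles apart, was at 0.543 and 0.553 in low-MYC and at 1.36 and 1.55 in high-MYC replicates. Tpx2, the activator of Aurora A on the spindle, was the highest of the 4 at 1.46 and 1.46 against 3.28 and 3.59. Its shares of 31.4 and 30.1 against 31.9 and 32.9 ppm gave a log2 change of 0.07 (SE 0.04, limma with Benjamini-Hochberg adjusted p = 0.278). Kif2c, a microtubule depolymerase, had 0.708 and 0.673 against 1.79 and 1.85, and the chromokinesin Kif4 had 0.189 and 0.194 against 0.465 and 0.515. None of the 4 genes passed an adjusted p of 0.05 as a share, where 7.77% of tested genes were called higher. In limma 3 of them, all but Tpx2, had an unadjusted p under 0.05, against 18.7% of tested genes higher at that threshold.

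In the central spindle and cytokinesis group, 3 of 6 genes passed an adjusted p under 0.05 as a share, against 7.77% of tested genes. Kif20a, a kinesin of the central spindle, was at 4.59 and 4.54 normalized FPK against 12.3 and 12.7, close to Cdc20 in both groups. Its share was 99.2 and 94.003 against 119 and 116 ppm, a log2 change of 0.29 (SE 0.04, limma with Benjamini-Hochberg adjusted p = 0.0268). Prc1, which bundles the antiparallel microtubules of the midzone, had 2.46 and 2.46 against 6.03 and 6.58. Anln, which encodes the ring protein anillin, had 1.32 and 1.36 against 3.34 and 3.67. The share changes of Prc1 and Anln were 0.19 and 0.21, with limma Benjamini-Hochberg adjusted p of 0.0498 and 0.0341. Ect2, the exchange factor that activates RhoA at the furrow, Kif23, its central spindle partner, and Kif20b had share changes between 0.12 and 0.16. These did not pass an adjusted p of 0.05, although both high-MYC shares lay above both low-MYC shares in each, as in 33.9% of tested genes.

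Chromosome structure genes gave the second largest summed share of the 8 groups, 284 and 278 against 317 and 331 ppm. Top2a, the topoisomerase that untangles sister chromatids, was at 3.77 and 3.90 in low-MYC and 9.59 and 10.7 in high-MYC replicates, with a log2 change of share of 0.24 (SE 0.04, limma with Benjamini-Hochberg adjusted p = 0.0342). Mki67, which codes for the Ki-67 protein that coats mitotic chromosomes, was at 3.26 and 3.52 against 8.18 and 9.34. Smc2 and Smc4 encode the 2 ATPases that every condensin complex contains. Smc2 was at 1.34 and 1.36 against 3.31 and 3.73, and Smc4 at 2.08 and 2.09 against 4.61 and 5.19. Their share changes differed: 0.21 (SE 0.04) in Smc2 and 0.07 (SE 0.04) in Smc4, where the shares of 44.9 and 43.2 against 44.9 and 47.6 ppm overlapped. The 3 genes of condensin I had changes of 0.29 in Ncapd2, 0.22 in Ncaph and 0.13 in Ncapg. Whether Smc2 and Smc4 differ in share change was not tested.

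The order of levels within the set was almost the same in both groups. Since FPK is divided by transcript length, levels can be set side by side between genes, though only roughly. The transcript length used for each gene is not stated, and the levels were not corrected for GC content. Ccna2 exceeded Cdc25c 33.5-fold in low-MYC and 31.8-fold in high-MYC cells. Of the 44 genes, 37 held the same or an adjacent place in the 2 orders, and the largest move was 6 places. Of the 43 pairs of neighbours in the order, 18 overlapped between replicates in low-MYC cells and 23 in high-MYC cells, so these neighbours do not differ beyond their spread. Pttg1 made the largest move, from place 25 to place 31.

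The difference between replicates followed base composition in rank, more in high-MYC than in low-MYC cells. GC content was taken from the longest protein-coding transcript of each gene in GENCODE M21, and it ranged from 39.4% in Kif20b to 56.1% in Espl1. In high-MYC cells replicate 2 had the higher share in all 11 genes of lowest GC content, with a median log2 difference of 0.07, and in 3 of the 11 genes of highest GC content, with a median of -0.06. Spearman's rho between GC content and this difference was -0.66 over the 44 genes and -0.62 over 10213 tested genes, and in low-MYC cells it was -0.38 and -0.37. These are descriptions across genes, which share the same libraries and are not independent. At the ends stood Bub1, whose transcript is 41.0% GC, and Ncapd2, at 54.0% GC, where high-MYC replicate 2 differed from replicate 1 by 0.15 and -0.10 on the log2 scale of share. The share change between groups had a rho with GC content of 0.41 over the set and 0.16 over the tested genes. When the trend with GC content was removed from each library, a step chosen after the data were seen, limma called 25 of the 44 genes higher in share at a Benjamini-Hochberg adjusted p under 0.01, against 10.2% of 10219 tested genes. The median log2 change of share was then 0.20, near the 0.21 without the step. The genes called were 6 of 8 entry kinases and cyclins, 3 of 4 checkpoint genes, 1 of 4 genes around the anaphase-promoting complex, 3 of 4 passenger complex genes, 3 of 7 kinetochore genes, 1 of 4 spindle motors, 4 of 6 central spindle genes and 4 of 7 chromosome structure genes. Cdc20 had a corrected log2 change of 0.30 (SE 0.02, limma with Benjamini-Hochberg adjusted p = 0.000804) and Pttg1 one of -0.05 (SE 0.03, adjusted p = 0.216 in the same limma fit).

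**Figure D3:**
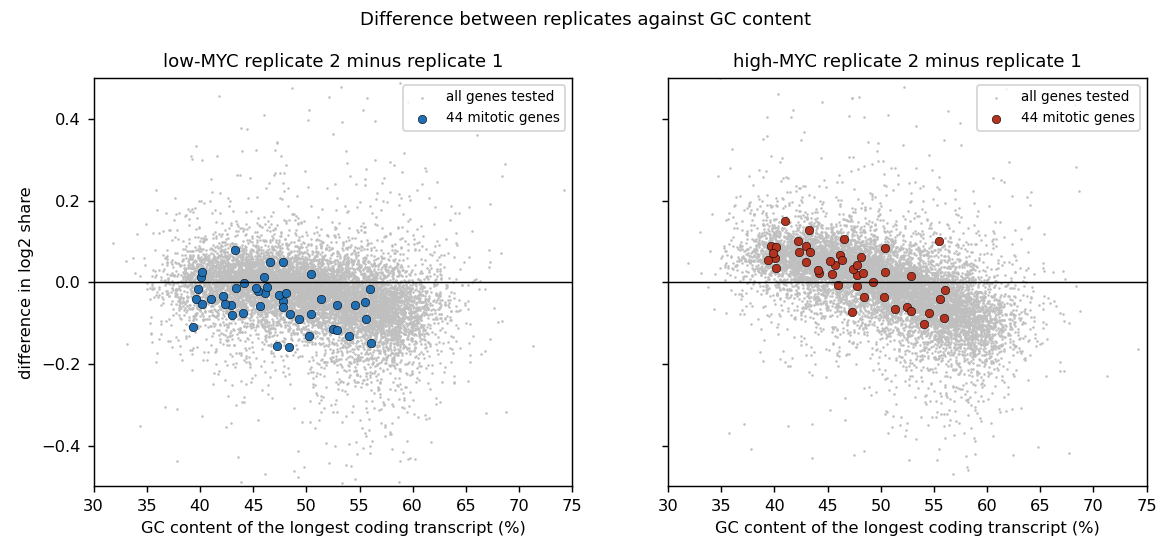
The 2 panels plot the difference in log2 share between replicates against the GC content of the longest coding transcript for low-MYC (left) and high-MYC (right) cells, with tested genes in grey and the 44 mitotic genes in colour; the vertical axis is limited to differences between -0.5 and 0.5. The high-MYC points slope downwards from AT-rich to GC-rich genes and the low-MYC points slope less, as the rho of -0.66 and -0.38 in the set describe.

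Other genes of the same processes were compared through 7 lists of genes, 98 in all, none of them in the set. All 94 that passed the filter on low values were called higher per cell by limma at an adjusted p under 0.01, beside 97.1% of all tested genes. As a share 0 passed that threshold in either direction, where 1.78% of tested genes were called higher. At an unadjusted p under 0.05 the share was higher in 33 and lower in 2, beside 18.7% of tested genes higher and 1528 of 11870 lower. Spindle and cytokinesis genes outside the set had a median log2 change of share of 0.19 over 19 tested genes, close to the 0.21 of the set. Ckap2, a spindle protein and the highest of that list, was at 1.41 and 1.40 normalized FPK against 3.86 and 4.17, with a share change of 0.34 (SE 0.04). Nusap1, a microtubule binder, also had 0.34 and Cep55, an abscission protein, -0.01. Mitotic regulators outside the set had a median share change of 0.14, from 0.26 in Cdc25b, a CDK-activating phosphatase, to -0.17 in Bora, an activator of Aurora A. Cks1b, a small CDK-binding subunit, was the highest gene of the list at 9.34 and 9.81 against 22.8 and 23.9. Kinetochore genes outside the set had a median of 0.09, with 0.29 in Knl1, the outer kinetochore scaffold, -0.15 in Zw10, and -0.07 in Zwint, the highest gene of that list.

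The remaining lists lay near the median of all tested genes. Subunits of the anaphase-promoting complex, which Cdc20 and Ube2c serve, had a median share change of 0.03 over 15 genes, from 0.20 in Anapc2 to -0.07 in Anapc10. Cohesin genes had a median of 0.02 over 10 genes, with 0.08 in Rad21, the subunit that separase cuts and the highest of the list, 0.13 in Cdca5 and -0.11 in Wapl. The 3 genes of condensin II had 0.07 in the median, with 0.05 in Ncaph2 and 0.19 in Ncapg2. Transcription factors known to act on mitotic genes had a median of 0.01 over 10 tested genes. Foxm1, the highest of them, was at 2.64 and 2.59 against 5.98 and 6.24 with a share change of 0.06 (SE 0.04), Rbl1, of the DREAM complex, had 0.18 and Lin37, of the MuvB core, -0.04. Outside these lists, the genes whose 4 shares lay nearest to the median pattern of the set, among 5608 genes with a mean of at least 1 normalized FPK, were Xbp1, Sdf2l1 and Tef, at Euclidean distances of 0.0101, 0.0104 and 0.0108 on the centred log2 scale over 4 libraries.

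**Figure D4:**
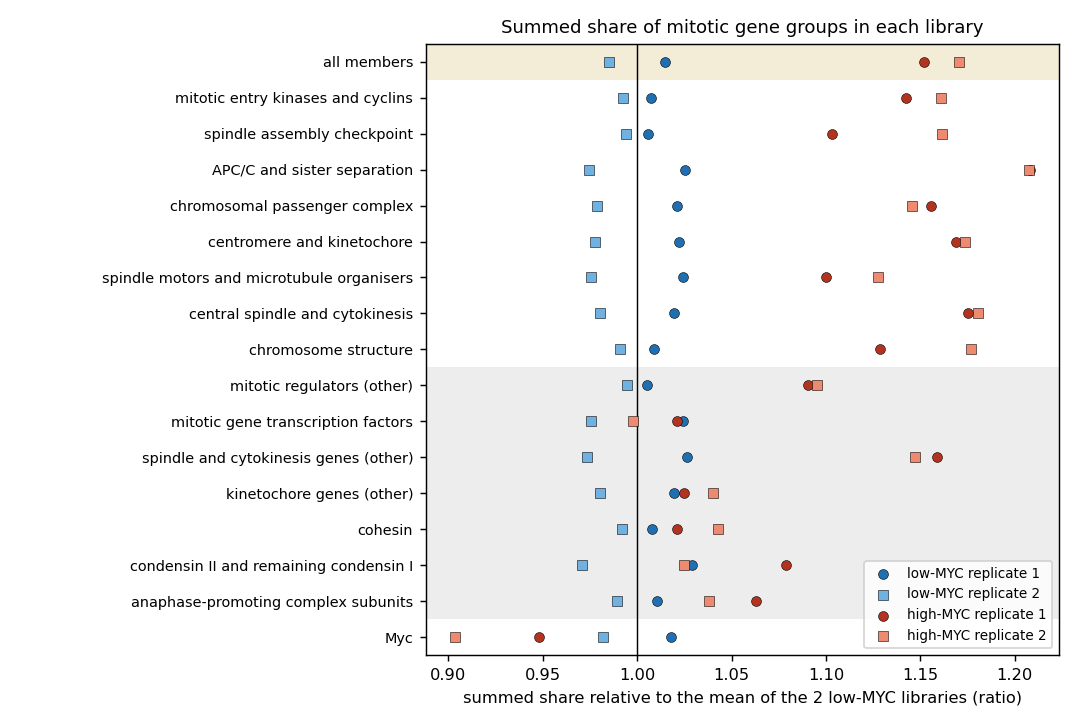
Each row is a group of genes and each point the summed share of 1 library divided by the mean of the low-MYC libraries; the top row is all 44 mitotic genes, the next 8 their role groups, the grey rows the 7 other lists, and the last row Myc. The 9 upper rows have both red high-MYC points to the right of both blue points, with the set at a mean ratio of 1.16, while Myc lies to the left at 0.93. The grey rows have the same order of points, except the transcription factor and condensin lists, where red and blue points overlap.

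Myc mRNA did not share the direction of the set on the share scale. Its share was 212 and 204 ppm in low-MYC and 197 and 188 in high-MYC replicates, a ratio of 0.93 and a log2 change of -0.11 (SE 0.04, limma with Benjamini-Hochberg adjusted p = 0.154). Fubp1, the gene of the first FUSE-binding protein, had a log2 change of share of -0.17 and Khsrp, the gene of FUBP2, one of -0.004. None of the 3 passed an adjusted p of 0.05.

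Markers of another cell type moved between the same libraries. Both high-MYC shares lay above both low-MYC shares in 7 of 10 fibroblast, 2 of 4 endothelial and 2 of 4 epithelial markers, beside 33.9% of tested genes. The same held for all 14 macrophage markers. Only 1 of the 14 reached the filter of 0.1 normalized FPK on its low-MYC mean and 9 reached it on the mean of all 4 libraries, so most entered the tests through the high-MYC libraries and no count of calls is given. Their summed share was 13.5 and 18.1 ppm in low-MYC and 272 and 270 ppm in high-MYC replicates, of which Lyz2 alone made 175 and 174. C1qa, Adgre1 and Tyrobp were listed at 0 in low-MYC replicate 1. The 10 fibroblast markers, led by Vim, had summed shares of 7762 and 7551 against 8556 and 8283, and endothelial and epithelial markers summed to under 4 ppm in each library. The part of the macrophage markers in the shares of the mitotic genes was not tested.

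TACh-seq, in which a nuclease releases DNA from accessible chromatin, gives a second readout at these genes. The labels of all 4 TACh-seq samples point to 1 table of 4881417 reads. Its name refers to a wild type library and to peaks, and none of its columns names a library, so WT and KOKD MEFs were not compared. The reads may be those of 1 library and of its peak regions only. Reads lay within 500 bases of the annotated start in 40 of the 44 genes, against 76.1% of the tested genes and 34.6% of genes that were not tested. Over the 40 genes the number of reads ran from 62 at Espl1 to 293 at Mad2l1 with a median of 142. Over all 44 genes the median was 129.5 and over all tested genes 98, where genes without listed reads count as 0. Among genes with reads, the median of the set lay above that of the tested genes within 500 bases. Within 1000 bases it lay slightly below, so this order depends on the window. Smc4 had 288 reads, Incenp 232 and Ccna2 226, while Ccnb1 and Mki67 had 67 each. Reads and mRNA levels thus had different orders, since Mki67 was among the 6 highest genes in level. No read was listed within 500 bases of the start of Ccnb2, Bub1, Bub1b and Cdca8. For Cdca8, 130 reads lay around the RefSeq start, 2394 bases downstream. For Ccnb2, Bub1 and Bub1b the nearest listed read was 80380, 39118 and 46991 bases away, so the table holds no reads in these neighbourhoods and says nothing of their promoters.

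**Figure D5:**
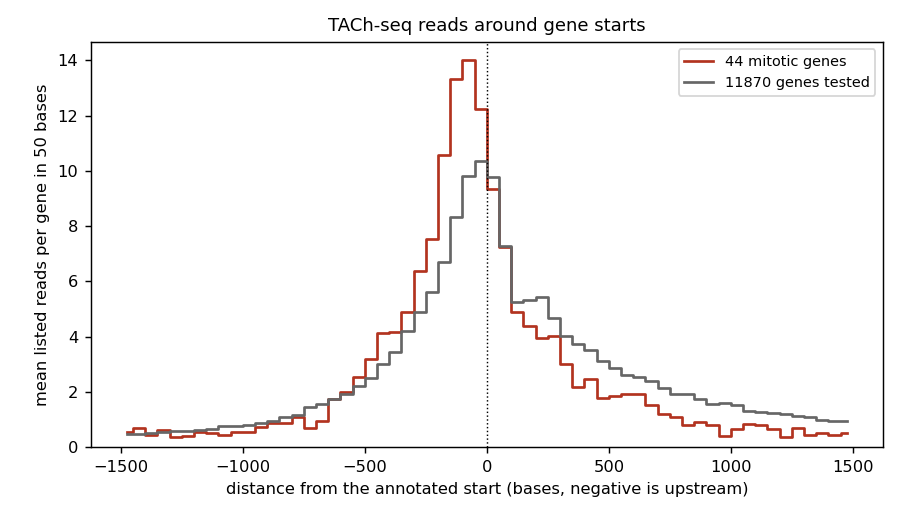
The lines give the mean number of listed TACh-seq reads per gene in steps of 50 bases, from 1500 bases before to 1500 bases after the annotated start, for the 44 mitotic genes and the tested genes. The mitotic genes reach 14 reads in the step centred 75 bases before the start and the tested genes 10.4 reads in the step centred 25 bases before it. After the start the tested genes lie higher in every step, for example 5.42 against 3.95 reads in the step centred at 225 bases. Genes without listed reads are part of both means.

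FUBP1 ChIP-seq of primary MEFs was deposited as positions of 166 peaks on 1 chromosome, 15, which holds Myc. Espl1 is the only gene of the 44 on that chromosome, at 102296266 to 102324357 of mm10 on the plus strand. No peak overlapped it, and the nearest, at 102382601 to 102388600, lay 58244 bases away. The other 43 genes lie on chromosomes without a listed peak and cannot be judged from this list.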

How the data were processed

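The RNA-seq libraries of both sorted groups, 2 technical replicates each, were used together with a TACh-seq table and a FUBP1 peak list. According to the methods, the authors trimmed reads, used TopHat to align them to mm10 transcripts, counted with the E/M algorithm of Partek Flow, and divided by transcript length and by the geometric mean of 10 ERCC transcripts, so the deposited RNA values are a signal per cell. This quantification splits reads between near-identical genes, so closely related genes share some uncertainty. TACh-seq reads were aligned with Bowtie2, and the deposited score is the mapping quality of each read. FUBP1 peaks were called with SICER and were deposited as positions. Tool versions are not given in the sources used here.

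From these values, log2(normalized FPK + 0.1) and log2(share in ppm + 1) were fitted in R 4.3.3 by limma 3.58.1 with lmFit and a trended eBayes. Genes averaging 0.1 or more over the libraries (11870) were tested, with Benjamini-Hochberg adjustment over all tested genes and a threshold of 0.01. Read counts are not given, so depth is unknown. Steps between low values put 1 read at 1, 1.00, 2.24 and 2.54 times its worth in low-MYC replicate 1, and the implied reads at 1, 1.04, 0.990 and 0.928 times. Only 32.3 to 33.5% of these values were whole within 0.05, where 10% would be by the tolerance alone, so no reads were recovered. GC content was removed per library by lowess (span 0.3). Shared replicate numbers were not taken as pairs, since no label ties them and 2 pairs exist. The fitting procedure was also run on simulated data with independent noise for each gene. Those data lack the shifts between replicates that genes share here, so the run does not bear on them. Ends in the table lie 1 base past the annotation and were corrected.

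The genes and lists were chosen with earlier results of these data known. Named genes are all 44 members, Myc, Fubp1 and Khsrp, in each list the gene of highest level and those of highest and lowest share change, the marker genes, and the 3 genes of nearest pattern. Fubp1, Khsrp and genes named beyond this were chosen after their values were seen. Alternatives covered the pseudocount, the filter, the scaling, the trend, the replicate block, GC content, the thresholds, the windows and each library left out. Other steps were run in Python 3.11.15 (matplotlib 3.10.9 for figures, scipy 1.17.1 for tests, numpy 2.4.6, pandas 2.3.3).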

Additional observations from a re-analysis of the deposited data

How the results depend on the processing

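The median changes of the set, per cell and as a share, kept their direction under every alternative run. The order of the set and the tested genes in median TACh-seq reads did not. Among genes with reads, the set lay higher within 500 bases of the start and slightly lower within 1000 bases. With the pseudocount 10 times larger, the number of genes called higher and at least 2-fold per cell was 12 of 44 instead of 44 (12.2% of tested genes), and the median log2 fold change 0.80. With it 10 times smaller the median was 1.37. When 1 library was left out, the median log2 fold change per cell ran from 1.23 to 1.32. The lone library is then assumed to vary like the other group, so no counts of calls are given for these fits. As a share, the larger pseudocount gave a median of 0.14. The number called in share was 4 of 32 with a minimum mean of 1 (4.90% of tested genes), 12 at an adjusted p of 0.05 (7.77%), 40 at an unadjusted p of 0.05 (18.7%), 25 after the GC correction (10.2%) and 22 with the GC correction and the replicate block (9.46%). The replicate block alone gave 0 calls in share, as over all tested genes (0.00%), and 44 per cell (97.7% of tested genes). When each library was left out the median log2 change of share ran from 0.17 to 0.22, and the ratio of the summed share from 1.14 to 1.18. In the other lists, at an unadjusted p under 0.05 the share was higher in 33 genes (18.7% of tested genes) and lower in 2 (1528 of 11870 tested genes). After the GC correction 19 were called higher (10.2% of tested genes) and 1 lower (647 of 10219 tested genes). TTTGAA was found in 14 of 36 promoters (12.3% of tested genes) when only bases before the start were read. The unadjusted p and the GC correction were added after the data were seen. Same-numbered libraries deviated together with a correlation of 0.07 over all genes and 0.52 over the set. The cause of these shifts was not tested. Technical replicates and unknown depth limit what a share change of this size can show.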
